A study of Mus musculus with 8 samples.

Results

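Fatty acid oxidation and ketone body metabolism were followed through 31 genes, named by their symbols, in the cerebral cortex of newborn mice that lack estrogen-related receptor gamma (ERRγ) and in wild-type cortex. The 31 were chosen for their place in the pathway, though with earlier results of these data known. They stand among 16561 genes with a symbol on the array. A probe was assigned to 29 of them, 51 probes in all, and 22 gave a signal above background that could be tested. Acsl1 and Hadha were not analysed here, because no probe carried their symbol. Both groups were whole cerebral cortex at postnatal day 0. One group was wild type and the other ERRγ-/-, as the labels write it, and no Cre driver, drug or further allele is named. Each genotype had 2 biological samples, and each sample was read on 2 Illumina bead arrays, called the first and the b array, which made 8 arrays. Sex, strain and whether a sample was 1 pup or a pool are not stated in the labels. Whether the samples vary as single animals would is therefore not known. The p-values rest on the spread between these samples, pooled in large part over all tested genes.

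Fatty acids enter oxidation as coenzyme A thioesters, are passed into mitochondria by the carnitine shuttle and are then shortened in repeated rounds of dehydrogenation, hydration, a second dehydrogenation and thiolysis. Electrons of the first step leave through the electron transfer flavoprotein to ubiquinone. Ketone bodies, made mainly in liver, are a major fuel of the suckling rodent brain and are turned back into acetyl-CoA in mitochondria. ERRγ is an orphan nuclear receptor that binds DNA at extended half-sites, and genes of mitochondrial fuel oxidation are among the known targets of its family. The comparison of the genotypes asks whether transcripts of this fuel pathway differ in cortex when the receptor is missing.

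The start regions of the genes were searched for the half-site that receptors of this family read. RefSeq promoter windows (assembly GRCm38.p6, 250 bases before to 50 after the annotated start) were found for 26 of the 31 genes, 30 windows in all. The core AGGTCA, on either strand, was in 6 of the 30 windows (20.0%), against 16.3% of all 32851 windows. The longer AAGGTCA, which contains the core, was in 2 windows (6.67%, against 4.72% of all), and the full extended half-site TCAAGGTCA, which contains both, in 1 window (3.33%, against 0.423% of all). A direct repeat of the core with a single base between its copies was in 0 of the 30 windows and in 13 of all. Those windows with the longer forms belong to Acadm, the medium-chain acyl-CoA dehydrogenase gene and a known target of estrogen-related receptors, and to Acsl6, an acyl-CoA synthetase gene of neural tissue. These windows are shown because they hold the longest matches, and binding of the receptor to them was not measured. Capitals mark the core, here on the opposite strand (TGACCT). The Acadm window is chr3:153944594-153944893 on the minus strand, and the Acsl6 window, 1 of 3 for that gene and the only one with a match, is chr11:54303574-54303873 on the plus strand.
Acadm: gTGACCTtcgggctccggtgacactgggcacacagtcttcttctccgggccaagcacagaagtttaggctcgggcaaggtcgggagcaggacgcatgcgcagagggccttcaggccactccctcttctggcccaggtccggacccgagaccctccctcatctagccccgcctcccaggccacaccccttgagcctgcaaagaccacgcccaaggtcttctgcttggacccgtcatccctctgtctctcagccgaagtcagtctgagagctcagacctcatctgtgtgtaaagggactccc
Acsl6: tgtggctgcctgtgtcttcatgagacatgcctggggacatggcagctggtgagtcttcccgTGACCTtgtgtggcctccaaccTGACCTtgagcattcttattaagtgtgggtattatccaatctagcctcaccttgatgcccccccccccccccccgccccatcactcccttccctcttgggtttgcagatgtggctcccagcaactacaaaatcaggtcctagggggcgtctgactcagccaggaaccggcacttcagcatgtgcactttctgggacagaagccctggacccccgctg
The core alone occurred in 4 more windows, those of Cpt1a, Cpt1c, Acadvl and Echs1. The core with up to 17 bases on each side is given for comparison, from windows chr19:3323051-3323350 (plus strand), chr7:44974802-44975101 (minus), chr11:70015379-70015678 (minus) and chr7:140116372-140116671 (minus).
Cpt1a: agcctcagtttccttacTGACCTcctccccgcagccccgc
Cpt1c: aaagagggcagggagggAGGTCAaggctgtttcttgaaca
Acadvl: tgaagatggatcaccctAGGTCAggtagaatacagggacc
Echs1: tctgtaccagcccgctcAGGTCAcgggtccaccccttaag
In the Cpt1a window the core lies on the opposite strand, 94 to 89 bases before the start, and in the Echs1 window it lies on the gene's own strand, 83 to 78 bases before it. The partner genes Etfa and Etfb, whose brightest probes gave differences of opposite sign, have no core in their windows, chr9:55512194-55512493 (minus strand) and chr7:43443822-43444121 (plus strand).
Etfa: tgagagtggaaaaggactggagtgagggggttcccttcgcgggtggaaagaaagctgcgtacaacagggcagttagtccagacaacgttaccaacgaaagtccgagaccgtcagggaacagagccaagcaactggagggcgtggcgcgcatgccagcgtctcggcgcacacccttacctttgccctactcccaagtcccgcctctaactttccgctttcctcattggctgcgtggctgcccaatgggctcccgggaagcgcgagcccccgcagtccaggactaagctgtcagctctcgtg
Etfb: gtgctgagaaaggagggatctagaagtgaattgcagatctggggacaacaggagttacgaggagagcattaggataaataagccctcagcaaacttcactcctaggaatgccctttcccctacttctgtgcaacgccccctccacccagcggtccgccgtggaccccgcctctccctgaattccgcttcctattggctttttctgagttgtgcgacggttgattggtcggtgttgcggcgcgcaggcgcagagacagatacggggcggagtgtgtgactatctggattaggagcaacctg
These matches describe letters within 300 bases of a start, and a window without one says nothing about the receptor at that gene.

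Probe detection split the pathway sharply. Of the 51 probes, 27 were above background (detection p under 0.05) on all 8 arrays, 19 on 0 arrays and 5 on some arrays. No level is given for 7 genes whose probes did not reach background on at least 4 arrays. Among them were Cpt1a, the carnitine palmitoyltransferase best known from liver, with 0 of 8 arrays on its only probe, and Acat1, the mitochondrial thiolase of ketone use, also with 0 of 8. Decr1, for the reductase of polyunsaturated acids, and Ehhadh, for the peroxisomal bifunctional enzyme, were at 0 of 8 as well. The best probe of Acadl, the long-chain dehydrogenase gene, was above background on 1 array, that of Hadh on 1 and that of Acads, the short-chain dehydrogenase gene, on 3. A dim probe is a statement about that probe: the only probe of the synaptic gene Snap25 was also above background on 0 of 8 arrays.

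**Figure D1:**
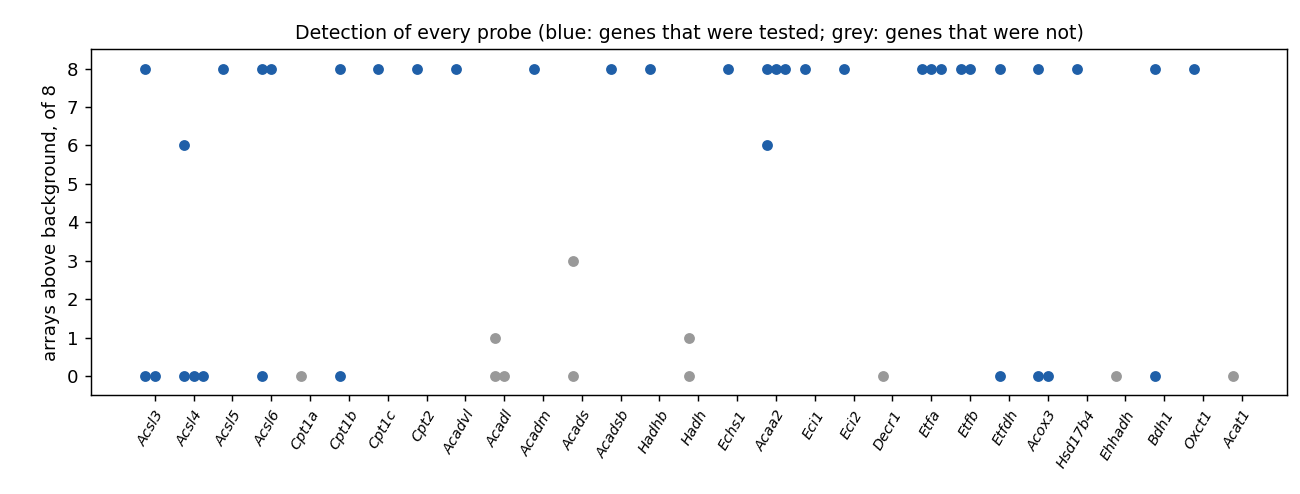
Each point is 1 probe of the pathway genes, and the vertical axis gives the number of arrays, of 8, on which it was above background (detection p under 0.05). Probes lie at 8 or at 0 arrays except for 5 of the 51, and the 7 genes in grey have no probe at 4 arrays or more.

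Sample facts for the whole series were as follows. Mean probe intensity before normalization ran from 390 to 639 over the 8 arrays, with the minimum on the first wild-type array. It was 390 to 565 on the wild-type arrays and 547 to 639 on the null arrays, so that array level partly followed genotype. Each array had 11022 to 12013 probes above background. The targeted gene gives no check of the labels, since the only Esrrg probe was above background on 0 of the 8 arrays. Of 13 neuronal markers 9 were tested, with a mean log2 signal of 11.10 and 11.26 in wild type and 11.26 and 11.19 in null cortex. Of the meningeal and fibroblast markers 2 of 8 were tested, with a mean of 8.27 and 8.09 in wild type but 7.87 in null sample 1 and 9.24 in null sample 2, while Col1a1 was above background on 0 arrays. Choroid plexus markers (2 of 6 tested) were at 6.58 and 6.57 in wild type and at 6.75 and 7.01 in the null samples, with Ttr above background on 0 arrays. Radial glia and progenitor markers (8 of 10 tested) lay at 7.79 and 7.79 in wild type and at 7.70 and 7.68 in null cortex, and astrocyte markers (8 of 10) at 8.41, 8.27, 8.38 and 8.36 in the same order. The part of these differences in the results below was not tested.

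Genes of fatty acid oxidation and ketone use did not pass the test for a genotype difference. Of 22 tested genes, 0 passed the limma test adjusted over all genes (threshold 0.05), where 0.0123% of all genes did (1 of 8098). At an unadjusted p under 0.05 there were 3 of the 22 (13.6%), against 7.22% of all genes. Of these, 2 were lower in null cortex, Acsl4 and Cpt1b (3.62% of all genes), and 1 was higher, Etfb (3.61% of all genes). Acsl4 met the filter through its wild-type arrays, with 4 of these but only 2 null arrays above background. It is also counted below among the genes at 0.25 or more and those without overlap. With detection required on all 8 arrays, 2 of 21 tested genes were at an unadjusted limma p under 0.05. The share over all genes with that filter is not given. An absolute log2 difference of at least 0.25 was reached by 4 of the 22 (18.2%), against 18.1% of all genes. The median log2 difference, ERRγ-null minus wild type, was 0.032 over the 22 genes and 0.0030 over all genes. Null values were higher for 12 and lower for 10 of the 22, and 50.6% of all genes were higher. The samples of the genotypes did not overlap for 9 of the 22 (40.9%), against 35.1% of all genes. For 4 genes both null samples were above (18.2%, against 17.7% of all), and for 5 both were below (22.7%, against 17.3%). In whole tissue, fewer cells of a type and less RNA per cell cannot be told apart.

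The intervals bounded what could be missed only for the brightest probe of each tested gene with quantile normalization. Genes that were not tested have no interval. Other probes and other normalization are not covered. Another Etfa probe differed by -0.55 (SE 0.17), and Etfb by 0.66 (SE 0.20) when array medians were equalised instead. The 95% confidence intervals of all 22 genes lay between -0.76 and 0.86 on the log2 scale, so none reached a difference of 1, which holds for 99.5% of all genes. These intervals are not adjusted for the number of genes, and each rests on 2 residual degrees of freedom and on limma's moderated variance. The largest differences were 1.37-fold higher (Etfb) and 1.35-fold lower (Acsl4) as point estimates. Differences of 20 of the 22 genes lay within -0.39 to 0.40, the range that holds the middle 95% of all genes. Spread between arrays was of the same order. The SD between the 2 arrays of a sample had a median of 0.171 over the 22 genes (0.173 over all genes), and the SD between samples of a genotype 0.129 (0.140 over all genes). These are unlike measures. The first is between single arrays, and the second is between averages of 2 arrays and still carries part of the spread between arrays. For 21 of the 22 genes the genotype difference was smaller than the widest gap between the 2 arrays of 1 sample. That count sets a difference of averages against the largest gap between single arrays, which is easily the wider. The share over all genes was not computed, so the count says nothing particular about these 22 genes.

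**Figure D2:**
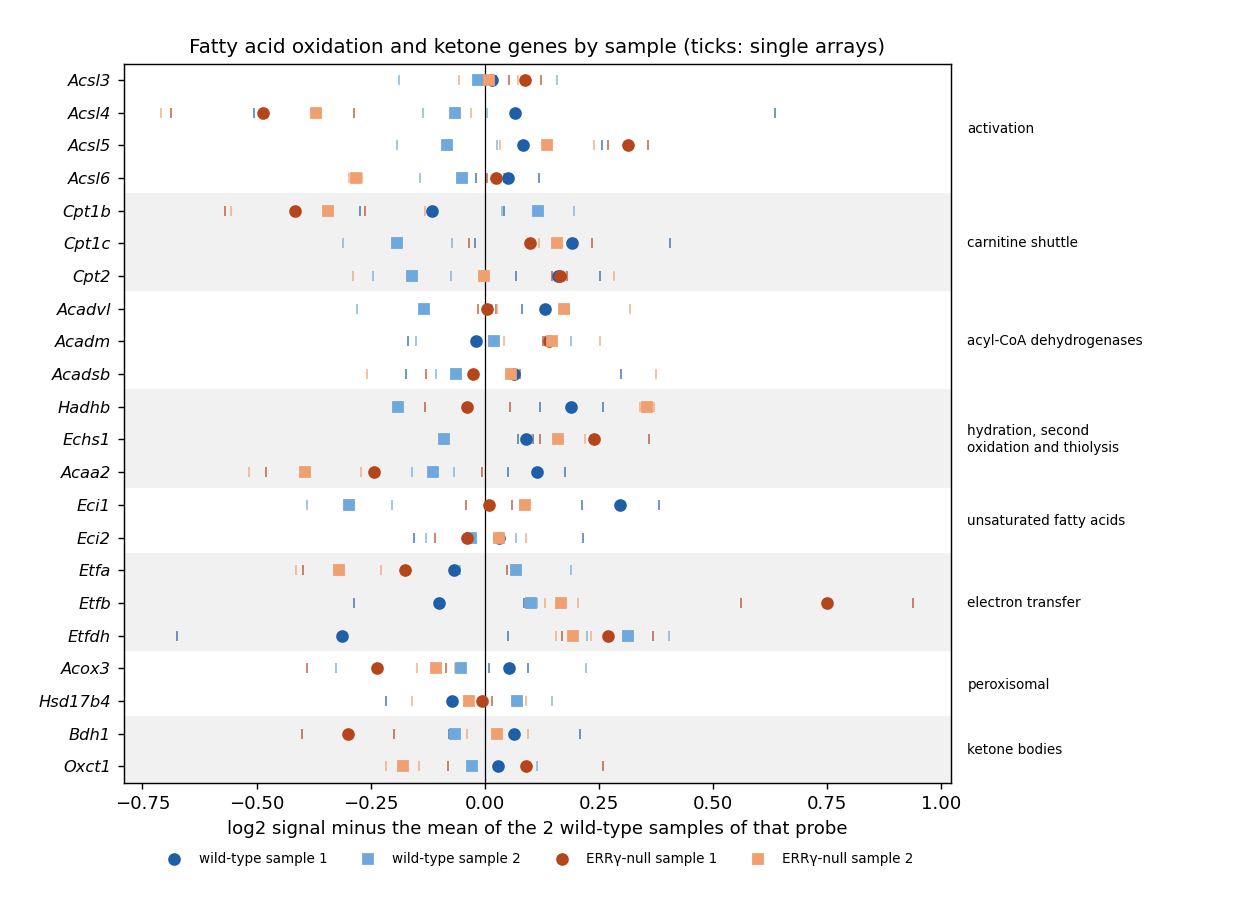
Normalized log2 signal of each tested gene, less the mean of its 2 wild-type samples, by sample (circles and squares) and by single array (ticks), grouped by pathway step. Null and wild-type samples overlap for 13 of the 22 genes; the red circle far to the right is null sample 1 for Etfb.

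Activation of fatty acids gave values in both directions. The Acsl genes encode long-chain acyl-CoA synthetases. Acsl4, whose enzyme prefers arachidonic acid, had a log2 signal of 6.53 and 6.40 in wild type and of 5.98 and 6.10 in null cortex. The null samples lay under the wild-type ones without overlap. The difference was -0.43 (SE 0.16, 95% confidence interval -0.76 to -0.095, limma adjusted p = 0.521). This probe was dim, detected on 4 of the wild-type and on 2 of the null arrays, and the 2 arrays of wild-type sample 1 read 7.10 and 5.96. The difference was -0.82 with the first arrays alone and -0.038 with the b arrays alone, and it was -0.14 without the dimmest array, the first of wild-type sample 1. Acsl5 had values of 9.83 and 9.66 in wild type and of 10.06 and 9.88 in null cortex. Its difference was 0.22 (SE 0.16, limma adjusted p = 0.848), without overlap of the groups. Acsl3 lay at 8.92 and 8.89 against 8.99 and 8.91, a difference of 0.048 (SE 0.15, limma adjusted p = 0.989). Acsl6 lay at 9.60 and 9.499 against 9.57 and 9.27, so that null sample 2 was apart from the other 3 samples. Its difference was -0.13 (SE 0.16, limma adjusted p = 0.947), with 0.068 on its second probe.

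Carnitine shuttle genes were represented by Cpt1b, Cpt1c and Cpt2. Cpt1b, the isoform best known from muscle, had values of 7.20 and 7.44 in wild type and of 6.90 and 6.98 in null cortex. The groups did not overlap, and the probe was above background on all 8 arrays. The difference was -0.38 (SE 0.16, 95% confidence interval -0.72 to -0.042, limma adjusted p = 0.620). Leaving out 1 sample at a time gave -0.50 to -0.26. Cpt1c, the neuronal isoform of the endoplasmic reticulum with little transferase activity, lay at 7.46 and 7.07 in wild type and at 7.37 and 7.42 in null cortex, between the wild-type samples. Its difference was 0.13 (SE 0.17, limma adjusted p = 0.947). Cpt2, the transferase of the inner mitochondrial membrane, lay at 6.64 and 6.33 against 6.65 and 6.48, a difference of 0.081 (SE 0.17, limma adjusted p = 0.978). The remaining isoform gene, Cpt1a, was below background as stated.

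Among the chosen pathway genes, the acyl-CoA dehydrogenases that could be tested (Acadm, Acadvl and Acadsb) all had differences under 0.15. Acadm, whose window holds the AAGGTCA match shown above, had the tightest samples of the pathway. It lay at 8.83 and 8.87 in wild type and at 8.99 and 8.996 in null cortex, so that both null samples were above both wild-type samples. The difference was 0.14 (SE 0.15, 95% confidence interval -0.18 to 0.47, limma adjusted p = 0.930). Between the arrays of 1 sample it spread more, by up to 0.341, and with the b arrays alone the difference was -0.076. Acadvl, the very-long-chain enzyme gene, differed by 0.088 and Acadsb, for the short and branched-chain enzyme, by 0.015. For both, the wild-type and null samples overlapped.

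Later steps of the mitochondrial cycle were read by Echs1, Hadhb and Acaa2. Echs1, the short-chain enoyl-CoA hydratase gene, lay at 9.93 and 9.75 in wild type and at 10.08 and 9.997 in null cortex. Its difference was 0.20 (SE 0.16, 95% confidence interval -0.13 to 0.53, limma adjusted p = 0.880), without overlap. Hadhb, the beta subunit gene of the trifunctional protein, lay at 9.08 and 8.70 against 8.85 and 9.25, with 1 sample of each genotype high. Its difference was 0.16 (SE 0.18, limma adjusted p = 0.934), and its alpha partner Hadha was not analysed here. Acaa2, the mitochondrial 3-ketoacyl-CoA thiolase gene, lay at 7.94 and 7.72 against 7.59 and 7.44 on its brightest probe. The difference there was -0.32 (SE 0.16, 95% confidence interval -0.66 to 0.023, limma adjusted p = 0.719). Of its 3 other probes above background, 1 gave -0.28, 1 gave 0.073 and 1 gave 0.52. The probe with 0.52 was above background on only 2 of the 4 wild-type arrays. For unsaturated acids, the isomerase genes Eci1 and Eci2 differed by 0.048 and -0.0040, with both groups overlapping.

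**Figure D3:**
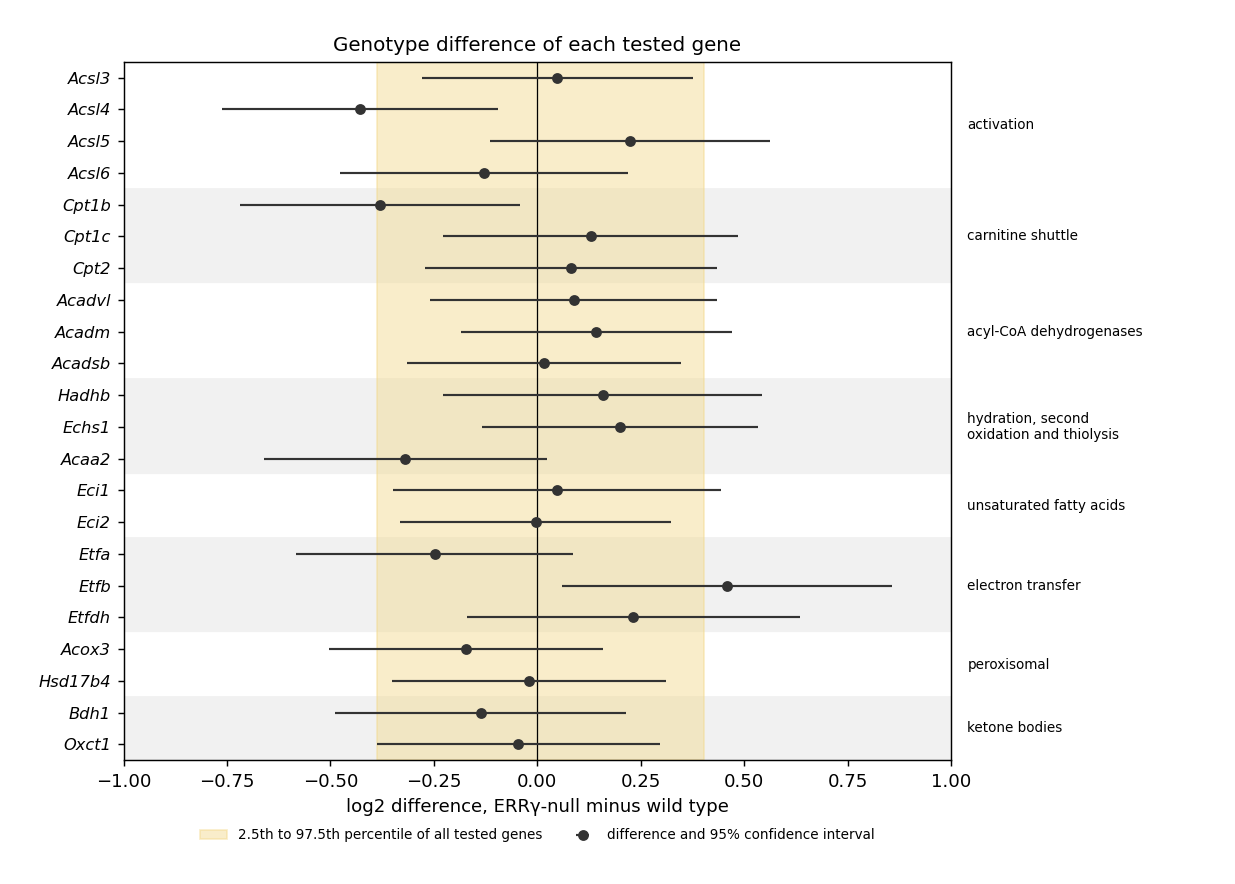
Log2 difference (ERRγ-null minus wild type) of each tested gene with its 95% confidence interval, over a band that holds the middle 95% of all 8098 genes. Acsl4 and Etfb lie outside the band, and no interval reaches 1 or -1.

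Subunits of the electron transfer flavoprotein went in opposite directions on their brightest probes. This flavoprotein takes electrons from the acyl-CoA dehydrogenases and is a dimer of the products of Etfa and Etfb. Etfb lay at 8.59 and 8.79 in wild type and at 9.44 and 8.86 in null cortex. Null sample 1 was apart, and null sample 2 lay close to the higher wild-type sample. The difference was 0.46 (SE 0.19, 95% confidence interval 0.059 to 0.86, limma adjusted p = 0.617). Without null sample 1 it was 0.17, and without null sample 2 it was 0.75. The other Etfb probe, also above background on all 8 arrays, read 9.02 and 8.39 in wild type and 8.73 and 8.36 in null cortex, a difference of -0.16 (SE 0.21, limma adjusted p = 0.944 over all kept probes). The probes of Etfb therefore did not give 1 direction.

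Etfa was lower in null cortex on each of its 3 probes. The brightest probe lay at 10.25 and 10.39 in wild type and at 10.14 and 9.999 in null cortex. Its difference was -0.25 (SE 0.16, 95% confidence interval -0.58 to 0.087, limma adjusted p = 0.811). The second lay at 8.998 and 9.16 against 8.87 and 8.65, a difference of -0.32 (SE 0.17, limma adjusted p = 0.746 over all kept probes). The third lay at 9.41 and 9.47 against 8.70 and 9.08, a difference of -0.55 (SE 0.17, limma adjusted p = 0.559 over all kept probes). On all 3 probes the null samples lay under the wild-type samples, and none passed the test. The probes read the same 4 RNA samples and are not independent replicates. Etfdh, for the oxidoreductase that hands the electrons to ubiquinone, lay at 7.504 and 8.13 in wild type and at 8.09 and 8.01 in null cortex. Wild-type sample 1 was apart from the other 3 samples. The difference was 0.23 (SE 0.19, limma adjusted p = 0.889), and without wild-type sample 1 it was -0.081.

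**Figure D4:**
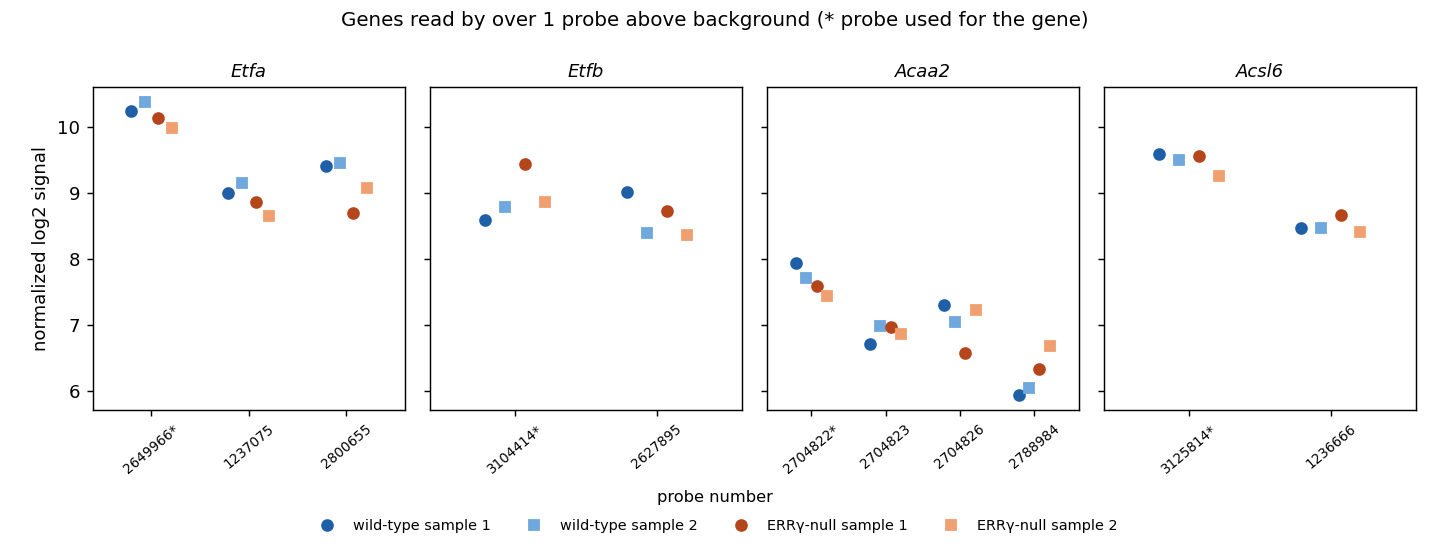
Normalized log2 signal per sample on each probe above background for the 4 genes with more than 1 such probe; an asterisk marks the brightest probe, which stands for the gene. Null samples are below wild-type samples on all 3 Etfa probes, while the probes of Etfb, Acaa2 and Acsl6 do not give 1 direction.

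Peroxisomal and ketone genes showed small differences. Acox3, a peroxisomal acyl-CoA oxidase gene, lay at 7.46 and 7.36 in wild type and at 7.17 and 7.30 in null cortex, a difference of -0.17 (SE 0.16, limma adjusted p = 0.908). The groups did not overlap. Hsd17b4, for the D-bifunctional protein of peroxisomes, differed by -0.020. Bdh1, the mitochondrial beta-hydroxybutyrate dehydrogenase gene, lay at 10.38 and 10.25 in wild type and at 10.02 and 10.34 in null cortex. Its difference was -0.14 (SE 0.17, 95% confidence interval -0.49 to 0.22, limma adjusted p = 0.945). Oxct1, for the transferase that commits ketone bodies to oxidation, lay at 11.26 and 11.20 against 11.32 and 11.05. The difference was -0.045 (SE 0.16, 95% confidence interval -0.39 to 0.30, limma adjusted p = 0.989). For Bdh1 and Oxct1 the genotypes overlapped. The next enzyme, encoded by Acat1, was below background as stated.

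Other genes of the same metabolism were described from lists chosen by function. The lists are not separate: Decr2 is in both the first and the peroxisomal list, and Acad8 and Ivd are in both the first and the branched-chain list. Further mitochondrial and carnitine genes (15 of 19 tested) had a median of -0.10, with 4 higher and 11 lower and 0 past the threshold, where 50.6% of all genes were higher and their median was 0.0030. That median was 0.0092 without wild-type sample 1, -0.025 without null sample 2 and 0.097 with median scaling of the arrays, which moved the median of all genes to 0.17. Its members with the smallest p were Acot9, an acyl-CoA thioesterase gene, with -0.46, Crat, for carnitine acetyltransferase, with 0.37, and the thioesterase gene Acot13 with -0.23. The limma adjusted p values for these were 0.591, 0.630 and 0.836. Peroxisomal oxidation (9 of 21 tested) had a median of -0.073, and 0 members passed. Its sign turned without wild-type sample 1 (0.044), without null sample 2 (0.0094), with the b arrays alone (0.037), with no filter on dim probes (0.046) and with median scaling (0.13). The values were 0.24 for the transporter gene Abcd4, -0.16 for the import receptor gene Pex5 and -0.13 for the sterol carrier gene Scp2. The Abcd4 probe was detected on 1 of 4 wild-type and on 4 of 4 null arrays, so it was tested through the null arrays. Ketone synthesis and transport (5 of 14 tested) had a median of 0.064 with 0 past the threshold. It was -0.10 without wild-type sample 1, -0.051 without null sample 2, -0.0091 with no filter on dim probes and 0.25 with median scaling. The monocarboxylate transporter genes Slc16a3 and Slc16a6 differed by -0.21 and 0.13, and Aacs, for acetoacetyl-CoA synthetase, by 0.064. Of the main monocarboxylate carriers of ketone bodies in brain, Slc16a1 and Slc16a7, each single probe was above background on 0 of 8 arrays.

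Regulators of fatty acid oxidation were higher in null cortex for 7 of 7 tested genes, of 20 listed, with a median of 0.20 and 0 past the threshold, where 50.6% of all genes were higher and their median was 0.0030. The 7 differences ran from 0.039 to 0.74, and the median was 0.099 to 0.31 with 1 sample left out and 0.062 with no filter on dim probes. Ppargc1a and Ppargc1b, which encode the PGC-1 coactivators of estrogen-related receptors, had the smallest p with Txnip, a gene of glucose uptake control. Ppargc1a lay at 5.95 and 6.07 in wild type and at 6.46 and 6.31 in null cortex, a difference of 0.38 (SE 0.16, limma adjusted p = 0.620). Its probe was detected on 1 of 4 wild-type arrays and on 4 of 4 null arrays, so it was tested through the null arrays. The count of 7 of 7 includes this gene and is no support for a direction. Ppargc1b differed by 0.74 (limma adjusted p = 0.377) and Txnip by 0.30 (limma adjusted p = 0.737). The Ppargc1b probe was dim in wild type, at 6.24 and 6.02, and its largest detection p was 0.0489, just under the cutoff of 0.05. Esrra, the related receptor gene, differed by 0.039. The probes of Ppara, Ppard and Pparg, for the fatty acid receptors of the nuclear receptor family, were above background on 0 of 8 arrays.

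Processing moved the median of the 22 genes as well as single values. When array medians were equalised instead of whole distributions (median scaling), the median over all genes moved to 0.17 and that of the 22 genes to 0.21, so that 17 of the 22 were higher. Relative to that shift, Etfb was at 0.48, Acsl4 at -0.51, Cpt1b at -0.38 and Acaa2 at -0.31. At an unadjusted p under 0.05 there were then 4 of the 22, Etfb, Etfdh, Echs1 and Acsl5, all higher, against 1 higher and 2 lower with quantile normalization. Of all genes at that p, 93.8% were higher with median scaling and 49.9% with quantile normalization. Over 19 refitted alternatives the smallest adjusted p of any of the 22 genes was 0.122, for Etfb with median scaling.

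**Figure D5:**
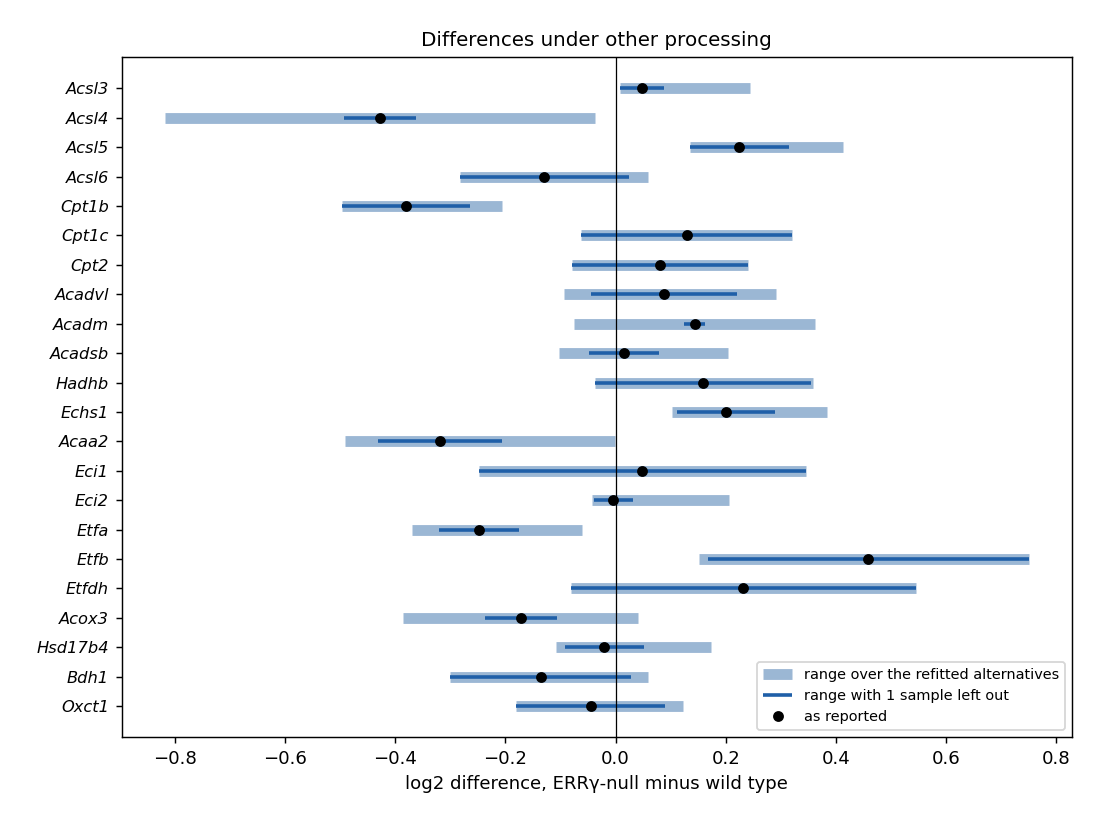
Log2 difference of each tested gene as reported (points), its range over 19 refitted alternatives (pale bars) and its range when 1 of the 4 samples was left out (dark bars). Acsl4, Cpt1b, Acaa2 and Etfa stay below 0 and Acsl3, Acsl5, Echs1 and Etfb above 0 throughout, and 14 genes reach both sides of 0. Acaa2 is at -0.00054 with the mean of its kept probes, and no alternative uses the second Etfb probe (-0.16) alone.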

How the data were processed

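Total RNA was hybridised to Illumina bead arrays, and the deposited table gave, per the file headers, 1 mean bead intensity and 1 detection p-value (signal against background) for each of 25697 probes and 8 arrays. The intensities were linear and differed in level between arrays. A second deposited table held intensities that the authors had brought to 1 distribution, by a method that the labels do not state. The submitters' processing notes name GenomeStudio. In R 4.3.3 with limma 3.58.1, neqc was applied (normexp through detection p, offset 16, quantile normalization, log2). Probes with detection p under 0.05 on at least 4 arrays were kept (11568), the brightest named each gene (8098 genes), and the 2 arrays of a sample were averaged. Genotypes were compared with lmFit and eBayes, two-sided, and p-values were adjusted by Benjamini-Hochberg across the 8098 genes, with calls made under 0.05 (14.0 prior degrees of freedom). The fit was also run on simulated data drawn from its own fitted variance model. That run could not test whether the model suits these arrays.

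The genes, lists and tests were chosen with earlier results of these data known. Genes were given in full when their unadjusted p was under 0.05, their difference was at least 0.25 or they belonged to a set of isoforms or subunits, and each further list by its 3 smallest p. Acadm, Echs1 and Acox3 were given in full beyond that rule, after their values were seen. Promoter sequences come from RefSeq, and the arrays' files name no genome build. Alternatives covered background correction, normalization, filter, arrays, variance prior, replicate number, probe choice, threshold and each sample left out. The number of biological samples, 2 per genotype, limits precision.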

Additional observations from a re-analysis of the deposited data

How the results depend on the processing

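In no alternative did a gene of the pathway pass the threshold (0 of 417 refitted single values). The reported sign was kept by 387 of the 417, but many of these could not turn. Another variance prior, a sample or replicate block, another detection filter or further probes in the fit left a gene's difference as it was. The 387 are therefore no measure of how stable the signs were. Over all genes 1 passed, and the count was 20 with median scaling, 12 with the replicate block, 0 without a filter, 0 with detection required on all 8 arrays, 0 with first or with b arrays alone, 0 with robust variance estimation (also 0 with a brightness trend added), 0 with the mean of a gene's probes, and 0 to 22 with 1 sample left out (22 when wild-type sample 1 and 17 when wild-type sample 2 was dropped, 0 when either null sample was; the lone sample is assumed to vary like the others). The count of the 22 genes at an unadjusted p under 0.05 was 1 without background correction, 1 in the authors' normalized table, 0 with b arrays, 0 without the dimmest array (limma in each case) and 0 to 3 with 1 sample left out, 0 being without null sample 1 and 1 without wild-type sample 1. The median of the 22 genes was 0.209 with median scaling, -0.0313 with b arrays and -0.0554 to 0.0449 with 1 sample left out, the lowest without wild-type sample 2. The cause was not tested. The replicate numbers do not pair the samples by the labels, the differences between samples 1 and 2 correlated at 0.00815 between genotypes over all genes, and the replicate block gave 0 calls among the 22 genes.

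Signs opposite to those reported, all far from the threshold, were found as follows. Median scaling gave 0.0582 for Acsl6, 0.206 for Eci2, 0.174 for Hsd17b4, 0.0591 for Bdh1 and 0.122 for Oxct1. The b arrays alone gave -0.0935 for Acadvl, -0.0761 for Acadm, 0.0342 for Eci2 and -0.0245 for Etfdh. The first arrays alone gave -0.0986 for Acadsb, 0.0409 for Acox3 and 0.0669 for Hsd17b4. Without the dimmest array Acadsb was -0.102 and Eci2 0.0889. With 1 sample left out the range was -0.283 to 0.0242 for Acsl6, -0.0627 to 0.320 for Cpt1c, -0.0790 to 0.240 for Cpt2, -0.0439 to 0.221 for Acadvl, -0.0480 to 0.0790 for Acadsb, -0.0381 to 0.355 for Hadhb, -0.248 to 0.345 for Eci1, -0.0398 to 0.0318 for Eci2, -0.0810 to 0.544 for Etfdh, -0.0916 to 0.0509 for Hsd17b4, -0.300 to 0.0275 for Bdh1 and -0.180 to 0.0893 for Oxct1.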

Other observations

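Transport and binding of fatty acids in the cell gave no gene past the threshold (0 of 12 tested, of 14 listed). The median difference was 0.021, with 6 genes higher and 6 lower, against a median of 0.0030 over all genes, and it was -0.15 to 0.10 with 1 sample left out. The fatty acid binding protein genes Fabp5, of epidermal and neural cells, and Fabp7, of radial glia, differed by 0.26 and 0.26, and Acbd3, for an acyl-CoA binding protein of the Golgi, by -0.28. The genotypes did not overlap for 3 of the 12 genes, these same 3, where 35.1% of all genes did not overlap. The limma adjusted p was 0.792 for Fabp5 and 0.811 for the other two. Cd36, the fatty acid translocase gene, was above background on 0 of 8 arrays.

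Oxidation of branched-chain amino acids and propionate, which shares the electron transfer flavoprotein with fatty acids, had a median of -0.072 over 13 of 18 listed genes, with 6 higher, 7 lower and 0 past the threshold. With 1 sample left out that median was -0.14 to 0.038, above 0 without wild-type sample 1, and with median scaling it was 0.13. Bcat2, the mitochondrial branched-chain aminotransferase gene, differed by 0.37 (limma adjusted p = 0.711) and was above background on 1 of 4 wild-type and 3 of 4 null arrays. Acad8, for isobutyryl-CoA dehydrogenase, differed by -0.24 and Dbt, a subunit gene of the branched-chain ketoacid dehydrogenase, by 0.17.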
